A study of Saccharomyces cerevisiae with 12 samples.

Results

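The genes described here are HIS1 to HIS7, which encode the enzymes of histidine synthesis in budding yeast, and GCN4, which encodes an activator of these genes. They were picked by name and pathway, with earlier results of these data known. All 8 were found among the 6650 genes of the deposited files. Histidine is made from phosphoribosyl pyrophosphate and ATP in a single linear pathway, and 1 enzyme, the HIS4 product, acts at several of its steps. Gcn4 binds upstream of genes of many amino acid pathways when amino acids are scarce, and its own level is set largely by translation of its mRNA, which Pol II occupancy does not show. Pcf11, the protein altered in the study, belongs to the complex that cuts nascent transcripts at their 3' ends, and it helps Pol II to terminate.

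RNA polymerase II (Pol II) was followed by chromatin immunoprecipitation and sequencing (ChIP-seq). The antibody, pan-CTD 4H8, binds the C-terminal domain of the polymerase, and the cells were grown in glucose. Cells of 3 kinds in the W303 background were compared, each with 2 biological replicates and each with 2 libraries of immunoprecipitated DNA and 2 matched libraries of input DNA. All of them were MAT alpha with ura3-1, trp1-delta, ade2-1 and his3-11,15, with a leu2 allele, and with the chromosomal PCF11 deleted (pcf11-delta::TRP1). PCF11 was supplied from a pRS325-LEU2 plasmid, so the control too was a plasmid-borne gene. The control group (WT) carried V5-PCF11-MYC, Pcf11-13 carried pcf11-13, and Pcf11-DNL carried V5-pcf11-deltaN-linkMYC. No tag is named for pcf11-13, so in its comparison with WT the mutation cannot be told apart from a missing tag. The leu2 allele is written differently in the labels of Pcf11-DNL, as leu2-3,12, than in those of the other groups, and the series text calls this mutant Pcf11-dQN. The his3-11,15 allele inactivates HIS3, so every strain, the control included, needed histidine from its medium, and the medium is described no further than its glucose.

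Mean coverage per gene was 140.1 to 300.7 in the 6 Pol II libraries and 132.3 to 189.1 in the 6 input libraries, and the files do not say how many reads each value rests on. Coverage is per base of gene and was divided by a scaling factor for each library, and is called scaled coverage below. Coverage varied less from gene to gene in WT replicate 1 (log2 SD 0.93) and Pcf11-DNL replicate 2 (0.92) than in the other 4 Pol II libraries (1.08 to 1.19), and these are called the libraries of narrow range. Of the mating-type markers, the 4 alpha genes had 0.984 to 20.6 times the enrichment of the median gene and the 6 a genes 0.135 to 0.532 times. Scaled Pol II coverage of PCF11 itself was 154 and 168 in WT, 759 and 847 in Pcf11-13, with 158 and 158 in Pcf11-DNL. Its input was also higher in Pcf11-13, at 332 and 316 against 215 and 225 in WT and 217 and 219 in Pcf11-DNL. In limma, PCF11 in Pcf11-13 differed from WT by 2.31 on the log2 scale in Pol II (adjusted p = 2.1e-05). In input it differed by 0.56 (adjusted p = 2.3e-04). Whether the amount of PCF11 plays a part in the differences below was not tested.

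In WT the genes of the pathway carried very different amounts of Pol II. To set genes side by side, Pol II over matched input was taken relative to the median gene of the same library. GCN4 stood highest, at 10.9 times the median gene and above 99.0% of genes. HIS1, whose product ATP phosphoribosyltransferase catalyses the first step, followed at 3.24 times the median. HIS3, which encodes the dehydratase of imidazole glycerol phosphate, had 1.99 times the median, although the strains carry a mutant allele of it. HIS7, which encodes the glutamine amidotransferase and cyclase that closes the imidazole ring, had 1.55 times. HIS4, at 1.21 times, and HIS5, the aminotransferase gene, at 1.04 times, lay close to the median gene. HIS6, which encodes the isomerase that acts before ring closure, had 0.902 times and HIS2, the histidinol phosphate phosphatase gene, had 0.702 times. HIS2 was above 23.1% of genes. The WT libraries of neighbouring genes in this order did not overlap.

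The order was almost the same in both mutants, and HIS4 was the gene that changed place. In Pcf11-13, HIS4 had 2.51 times the median gene and was above 90.6% of genes, against 63.3% in WT. It then lay beside HIS3, at 2.52 times, with overlapping libraries, and above HIS7, at 1.59 times. In Pcf11-DNL, HIS4 had 1.59 times the median and was above 80.0% of genes, level with HIS7 at 1.55 times, and their libraries overlapped. GCN4 remained highest, at 9.86 times in Pcf11-13 and 9.15 times in Pcf11-DNL, and HIS2 lowest, at 0.679 and 0.758 times.

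**Figure D1:**
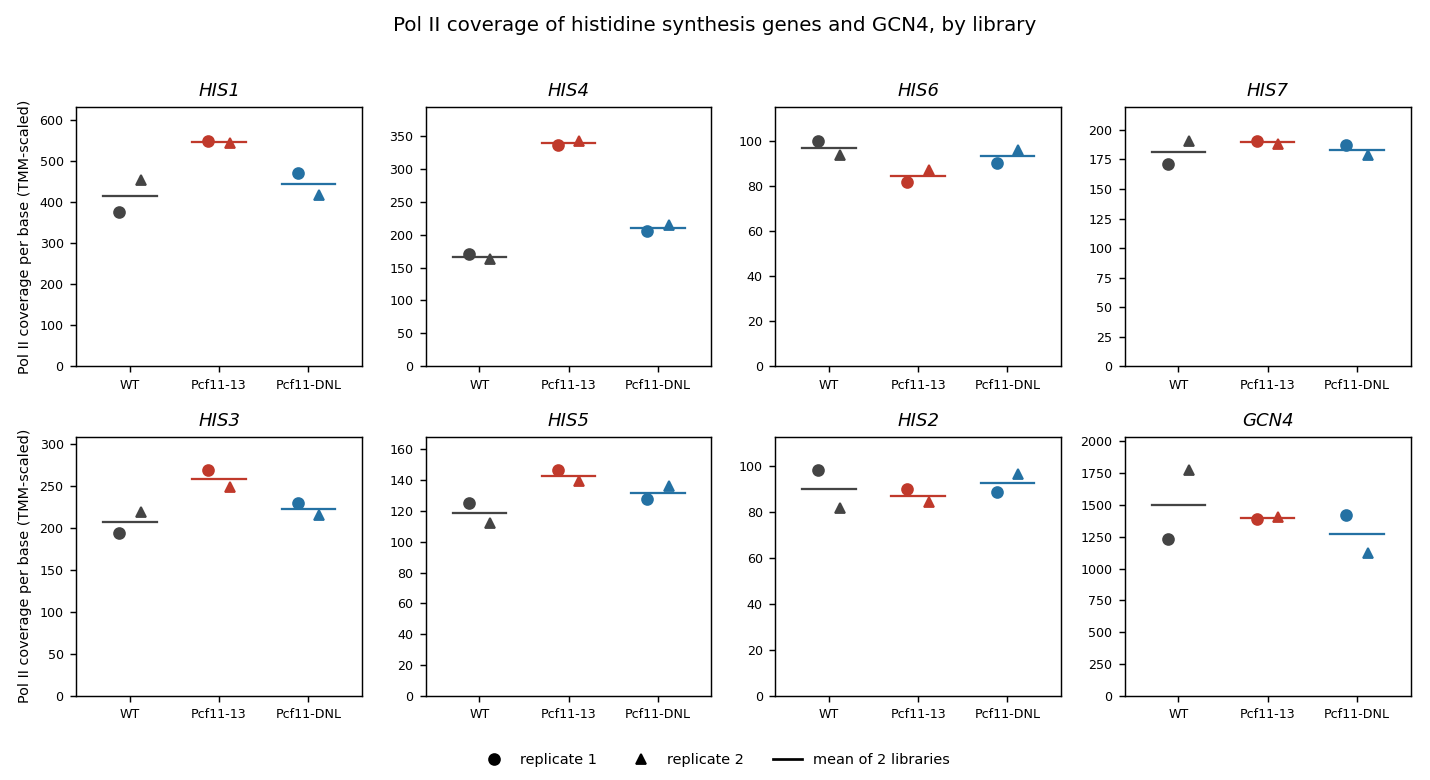
Scaled Pol II coverage per base (vertical axis, from 0, with its own range for each gene) of the 8 genes in each library. Circles are replicate 1, triangles replicate 2 and lines the mean of both. For HIS4 and HIS5 the 3 groups do not overlap and stand in the order WT, Pcf11-DNL, Pcf11-13, with the wider gaps for HIS4.

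The first comparison asked how Pol II over these genes differs between cells with Pcf11-13 and WT cells. HIS4 encodes an enzyme with several activities that act at the second, the third and the last steps of the pathway. HIS4 (YCL030C) lies on chromosome III from 65934 to 68333 (sacCer3, Crick strand). Its scaled Pol II coverage was 170 and 163 in WT and 336 and 342 in Pcf11-13. Both mutant libraries lay far above both WT libraries. The rise was 1.02 on the log2 scale (SE 0.08, 95% interval 0.84 to 1.20), or 2.03-fold, with an adjusted p of 6.5e-04. This change exceeded that of 99.9% of the 6642 genes tested.

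HIS4 was the 1 gene of the 8 that passed the test, where 76 of all genes tested, or 1.14%, were called in either direction. The 76 called genes were 66 that rose (0.994%) and 10 that fell (0.151%). With a library left out, 435 genes were called without WT replicate 1, 1214 without WT replicate 2, 9 and 8 without Pcf11-13 replicate 1 or 2, and 189 and 206 without Pcf11-DNL replicate 1 or 2. HIS4 passed in each of these fits, with a change of 0.99 to 1.05 and an adjusted p of at most 0.024. HIS1 and HIS3 also passed without WT replicate 2 and HIS5 without WT replicate 1, as given with their values below. Differences here are relative to the trimmed mean of all genes. With meiosis and sporulation genes as the basis of the scaling instead, the median gene stood at 0.23, HIS4 stood at 1.27, and its adjusted p was 0.9.

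HIS1, HIS3 and HIS5 also had both Pcf11-13 libraries above both WT libraries without passing the test over all genes. HIS1 (YER055C, chromosome V, 264892 to 265785, Crick strand) had a scaled coverage of 375 and 452 in WT and 549 and 544 in Pcf11-13. The groups did not overlap, and WT spread more widely than the mutant. Its log2 difference was 0.41 (SE 0.13, 95% interval 0.10 to 0.71, adjusted p = 0.23). Without WT replicate 2 the difference was 0.54 with an adjusted p of 0.0046, and without WT replicate 1 it was 0.27 with an adjusted p of 0.41.

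HIS3 (YOR202W, chromosome XV, 721946 to 722608, Watson strand) had 194 and 219 in WT and 269 and 249 in Pcf11-13. Its libraries did not overlap either, and the gap between the groups was about as wide as the spread within them. The log2 difference was 0.32 (SE 0.09, 95% interval 0.11 to 0.54, adjusted p = 0.16). Without WT replicate 2, which left the library of narrow range as the WT library, it was 0.41. Over 17 alternative settings of the processing it ranged from 0.23 to 0.57, and HIS3 passed the test in 2 of them. HIS5 (YIL116W, chromosome IX, 142928 to 144085, Watson strand) had 125 and 112 in WT and 146 and 139 in Pcf11-13, again without overlap. Its log2 difference was 0.27 (SE 0.08, 95% interval 0.08 to 0.45, adjusted p = 0.19). Without WT replicate 1, a library of narrow range, it was 0.34. Over the 17 settings it ranged from 0.19 to 0.51, and HIS5 passed the test in 2 of them.

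The differences were smaller for the other enzyme genes. HIS7 (YBR248C, chromosome II, 714807 to 716465, Crick strand) had 171 and 191 in WT and 191 and 188 in Pcf11-13, and its log2 difference of 0.07 had an interval of -0.12 to 0.25. HIS2 (YFR025C, chromosome VI, 203743 to 204750, Crick strand) had 98.0 and 81.8 in WT and 90.0 and 84.1 in Pcf11-13, with both mutant values inside the WT range. Its log2 difference was -0.04, with an interval of -0.27 to 0.19. HIS6 (YIL020C, chromosome IX, 314035 to 314820, Crick strand) was the gene of the 8 whose mutant libraries both lay below WT. It had 100.2 and 94.0 in WT and 81.9 and 87.4 in Pcf11-13, a log2 difference of -0.20 (SE 0.08, 95% interval -0.37 to -0.02, adjusted p = 0.34), which became 0.049 with scaling on meiosis and sporulation genes.

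GCN4 (YEL009C, chromosome V, 138918 to 139763, Crick strand) showed no difference that the libraries could resolve. Its scaled coverage was 1231 and 1772 in WT and 1392 and 1402 in Pcf11-13. The mutant libraries lay close together between the WT values, of which the lower came from the library of narrow range, whose part in this spread was not tested. The log2 difference was -0.08 (SE 0.29, 95% interval -0.75 to 0.59, adjusted p = 0.94), an interval that holds both a fall and a rise of 1.5-fold.

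Counted over the 8 genes, 4 had both Pcf11-13 libraries above WT (HIS1, HIS4, HIS3 and HIS5) and 1 had both below (HIS6). Of all genes tested, 40.1% had libraries that did not overlap, made up of 19.6% higher and 20.5% lower in the mutant. At an unadjusted p under 0.05 there were 5 of the 8, against 12.6% of all genes. The median log2 difference was 0.27 over the 7 enzyme genes and 0.17 over all 8, beside -0.02 over all genes.

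**Figure D2:**
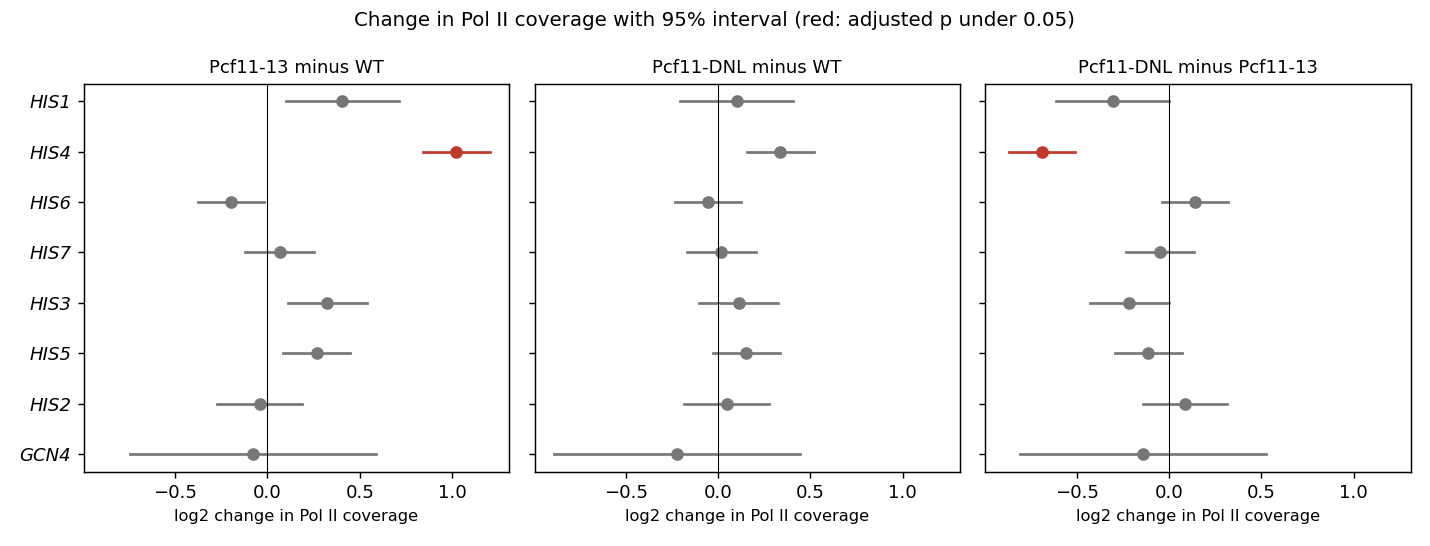
Log2 change in scaled Pol II coverage (horizontal axis) of each gene in the 3 comparisons, as points with 95% intervals. Red marks an adjusted p under 0.05, reached by HIS4 for Pcf11-13 against WT (1.02) and for Pcf11-DNL against Pcf11-13 (-0.69). The intervals of GCN4 are the widest of the 8 genes in each comparison.

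Input DNA over HIS4 differed little between the groups. Its scaled input coverage was 165 and 168 in WT, 163 and 161 in Pcf11-13, with 163 and 159 in Pcf11-DNL. The log2 difference in input between Pcf11-13 and WT was -0.04 (95% interval -0.10 to 0.01, adjusted p = 0.88). With each Pol II library taken over its input, HIS4 was 1.07 higher on the log2 scale in Pcf11-13 (SE 0.09, 95% interval 0.87 to 1.27, adjusted p = 1.4e-04). In that comparison 2.09% of genes were called and HIS4 was the 1 gene of the 8 among them. In input, limma called 0 of the 8 genes between Pcf11-13 and WT, with 0 of them at an unadjusted p under 0.05, where 0.256% of all genes were called and 5.78% had an unadjusted p under 0.05.

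The second comparison set Pcf11-DNL against the same 2 WT libraries, so the values for the mutants share their control. HIS4 had 206 and 214 in Pcf11-DNL, above both WT libraries (170 and 163) and below both Pcf11-13 libraries (336 and 342). The difference from WT was 0.34 on the log2 scale (SE 0.08, 95% interval 0.16 to 0.52), or 1.26-fold, with an unadjusted p of 0.0023. It did not pass the test over all genes (adjusted p = 1). Without WT replicate 1 it did, at 0.37 with an adjusted p of 0.017, and 405 genes in all were called in that fit. Without WT replicate 2, 28 genes were called and HIS4, at 0.31, was not among them (adjusted p = 0.49).

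In this comparison limma called 0 of the 8 genes, with 1 of them, HIS4, at an unadjusted p under 0.05. Of all genes tested, 0.0151% were called, which is 1 gene, and 1.61% had an unadjusted p under 0.05. Both Pcf11-DNL libraries lay above WT for HIS4 and HIS5, and in 0 of the 8 genes were both below. Libraries did not overlap for 16.7% of all genes, with 9.09% higher and 7.6% lower. HIS5 had 128 and 136 against 125 and 112, a log2 difference of 0.15 (95% interval -0.03 to 0.34). It was 0.23 without WT replicate 1 (adjusted p = 0.12) and 0.076 without WT replicate 2 (adjusted p = 1).

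The remaining genes overlapped WT. HIS1 had 469 and 416 in Pcf11-DNL, and HIS3 had 230 and 216, with log2 differences of 0.10 and 0.11. For HIS3 the difference was 0.021 without WT replicate 1, 0.20 without WT replicate 2 and 0.065 without Pcf11-DNL replicate 1. For HIS1 it was -0.033 and 0.24 without WT replicate 1 or 2, and 0.015 and 0.19 without Pcf11-DNL replicate 1 or 2. HIS7, at 188 and 179, lay inside the WT range, and HIS2, at 88.6 and 96.6, did too. HIS6 had 90.5 and 96.1, a log2 difference of -0.06. GCN4 had 1422 and 1126, and the lower of these came from the second library of narrow range. Its log2 difference was -0.22 (95% interval -0.89 to 0.44). The median over the 8 genes was 0.07 on the log2 scale, beside 0.00 over all genes. In input, 0 of the 8 were called by limma and 2, HIS5 and HIS2, had an unadjusted p under 0.05, where 0% of all genes were called and 232, or 3.49%, had an unadjusted p under 0.05.

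**Figure D3:**
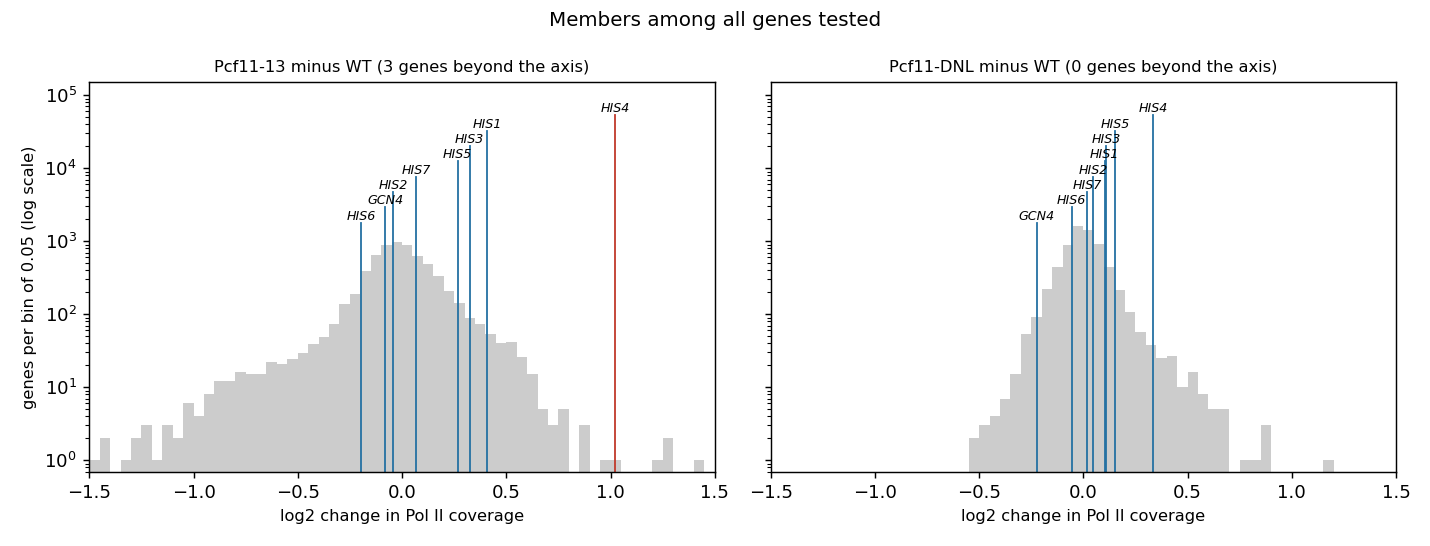
Log2 changes of the 8 genes (vertical lines, with heights set for legibility) over the histogram of all 6642 genes tested (grey, in bins 0.05 wide, with gene numbers on a log axis). In Pcf11-13, 3 genes lie beyond the axis. HIS4 is in the upper tail of both panels, above 99.9% of genes in Pcf11-13 and 98.3% in Pcf11-DNL.

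The third comparison set the mutants side by side. This comparison uses the same Pcf11-13 libraries as the first. HIS4 had less Pol II in Pcf11-DNL, by a log2 difference of -0.69 (SE 0.08, 95% interval -0.87 to -0.51, adjusted p = 0.02). It was the 1 gene of the 8 that passed the test, where 0.166% of all genes, 11 in number, were called and 11% had an unadjusted p under 0.05. This call was lost without either Pcf11-13 library. Without replicate 1 or replicate 2 of that group the difference was -0.70 and -0.67, with adjusted p of 0.24 and 0.29, and 1 gene in all was called in each fit. Without WT replicate 1 or 2, 680 and 679 genes were called, and without Pcf11-DNL replicate 1, 20 genes were. HIS4 also missed the threshold with quantile normalization (-0.57, adjusted p = 0.10), with scaling on meiosis and sporulation genes (-1.03, adjusted p = 0.68) and with no mean-variance trend (adjusted p = 0.13).

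For HIS1, HIS3, HIS5 and HIS7, both Pcf11-DNL libraries also lay below both Pcf11-13 libraries, and for HIS6 both lay above. Groups did not overlap for 55.8% of all genes, with 29.1% higher and 26.7% lower. The log2 differences were -0.31 for HIS1 and -0.21 for HIS3 (adjusted p = 0.45 for each), -0.11 for HIS5 and 0.14 for HIS6. HIS7 had a difference of -0.05. HIS2, at 0.09, and GCN4, at -0.14, had overlapping libraries. In input, limma called 0 of the 8 genes, with 0 at an unadjusted p under 0.05, where 0.256% of all genes were called and 5.71% had an unadjusted p under 0.05.

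The behaviour of HIS4 beside the rest of the pathway was also read within each library, where the scaling cancels. HIS4 less the median of the 6 other HIS genes was 0.21 and 0.15 on the log2 scale in WT. In Pcf11-13 it was 1.00 and 1.08, and in Pcf11-DNL 0.41 and 0.46. The 3 groups did not overlap. With 2 libraries against 2, an exact permutation test cannot give a p below 0.33, so none is given. GCN4 less the same median was 3.06 and 3.59 in WT, 3.05 and 3.11 in Pcf11-13, with 3.19 and 2.85 in Pcf11-DNL, and these overlapped.

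Because Pcf11 acts in termination, the nearest annotated protein-coding gene on either side of each of the 8 was followed too. The gene upstream of HIS4 is BIK1, which encodes a microtubule-associated protein. It is read on the same strand, from 68599 to 69921 on chromosome III, and its 3' end is separated from the start of HIS4 by 265 bp. Scaled Pol II coverage of BIK1 was 129 and 123 in WT, 176 and 184 in Pcf11-13, with 130 and 139 in Pcf11-DNL. The rise in Pcf11-13 was 0.51 on the log2 scale (SE 0.07, adjusted p = 0.019), and it passed the test. Without either Pcf11-13 library it did not (adjusted p = 0.21 for each).

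HIS4 exceeded BIK1 by more in each mutant library than in either WT library. HIS4 over BIK1 was 0.39 and 0.40 on the log2 scale in WT, 0.92 and 0.89 in Pcf11-13, with 0.66 and 0.62 in Pcf11-DNL. In Pcf11-DNL, BIK1 itself differed from WT by 0.09 (adjusted p = 1) and from Pcf11-13 by -0.42 (adjusted p = 0.11). Downstream of HIS4, 365 bp away on the same strand, is RRP7, which is needed for ribosomal RNA processing. RRP7 had 287 and 327 in WT, 287 and 298 in Pcf11-13, with 316 and 276 in Pcf11-DNL, all overlapping. Its log2 difference in Pcf11-13 was -0.07 (adjusted p = 0.85). Input of BIK1 differed by -0.06 on the log2 scale between Pcf11-13 and WT (adjusted p = 0.86).

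**Figure D4:**
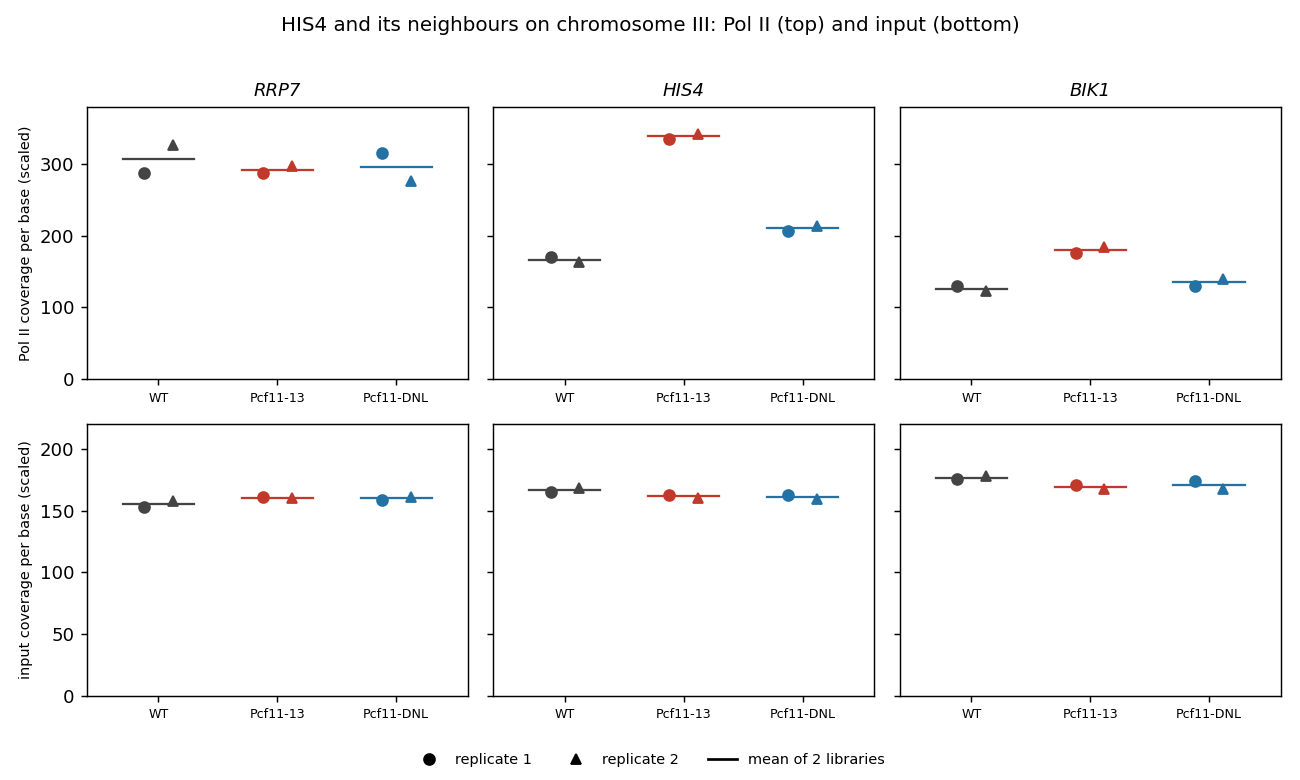
Scaled coverage per base of HIS4, of the gene downstream of it (RRP7) and of the gene upstream of it (BIK1) in each library, for Pol II above and input below, on axes from 0. Circles and triangles are replicates 1 and 2 and lines the mean. In Pcf11-13, Pol II is higher over HIS4 and BIK1 while RRP7 and all 3 inputs stay near WT.

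Around the other 7 genes no neighbour passed the test. Of the 8 upstream neighbours, 1 (BIK1) was called in Pcf11-13 and 5 had an unadjusted p under 0.05. A positive log2 difference was found for 6 of them, with a median of 0.22 and a range of -0.27 to 0.51. Of the 8 downstream neighbours, 0 were called by limma, with 2 (GIP2 and RPB3) at an unadjusted p under 0.05. Their difference was positive for 2 of the 8, with a median of -0.10. GIP2, downstream of HIS1 on the same strand, had -0.34 (adjusted p = 0.21), beside 0.41 for HIS1. Of all genes, 1.14% were called and 12.6% had an unadjusted p under 0.05. PRM5, a pheromone-regulated gene that diverges from HIS5, had a log2 difference of 0.36 (adjusted p = 0.064), beside 0.27 for HIS5. ARO4, an enzyme gene of aromatic amino acid synthesis upstream of HIS7, had 0.32 (adjusted p = 0.31), beside 0.07 for HIS7. MRM1, which encodes a methyltransferase of mitochondrial ribosomal RNA and diverges from HIS3, had 0.22 (adjusted p = 0.39). DED1, the gene of a translation initiation helicase downstream of HIS3, had -0.01. FAF1 and RPB3, a subunit gene of Pol II itself, flank HIS6 and had -0.27 and -0.20, beside -0.20 for HIS6. In Pcf11-DNL against WT, limma called 0 neighbours, with 0 at an unadjusted p under 0.05. Over all genes in that comparison, 0.0151% were called and 1.61% had an unadjusted p under 0.05. The neighbours had medians of 0.06 upstream and -0.03 downstream.

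The genes around the pathway were described by list. Targets of Gcn4 in other amino acid pathways, 31 genes, held 3 that rose in Pcf11-13 and 0 that fell, beside 0.994% and 0.151% of all genes. An unadjusted p under 0.05 was found for 19 of the 31, against 12.6% of all genes. Their log2 differences were positive in 27 of 31, with a median of 0.26, close to the 0.27 of the histidine genes, beside -0.02 over all genes. The called genes included ARG1 and ARG4, which encode enzymes of arginine synthesis. ARG1, argininosuccinate synthetase, had 169 and 182 in WT and 291 and 247 in Pcf11-13, a rise of 0.61 (SE 0.10, adjusted p = 0.029). ARG4, argininosuccinate lyase, had 258 and 297 in WT and 428 and 423 in Pcf11-13, a rise of 0.62 (SE 0.11, adjusted p = 0.043). Neither call held without Pcf11-13 replicate 1 (adjusted p = 0.36 for ARG1 and 0.47 for ARG4) or replicate 2 (0.094 and 0.34).

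The other lists had medians between -0.05 and 0.00 in Pcf11-13, and limma called 0 genes in each. For histidine uptake, charging and precursor supply, 5 of 10 genes had a positive difference and 0 had an unadjusted p under 0.05. Their smallest p belonged to ADE3, a gene of one-carbon metabolism that feeds purine synthesis. The log2 difference of ADE3 was 0.25 (unadjusted p = 0.059, adjusted p = 0.42). For transcription factors of HIS genes, 3 of 5 were positive and 0 had an unadjusted p under 0.05. Of 14 genes that control GCN4 translation or Gcn4 stability, 6 were positive and 1 had an unadjusted p under 0.05. That gene was PCL5, which encodes a cyclin that acts in Gcn4 degradation. PCL5 had 159 and 198 in WT, 254 and 271 in Pcf11-13, with 215 and 176 in Pcf11-DNL, a log2 difference of 0.56 from WT in Pcf11-13 (SE 0.13, adjusted p = 0.085). PCL5 passed the test in 9 of 17 alternative settings, over which its difference was 0.41 to 0.81. Among these were the fits without WT replicate 1 (0.41, adjusted p = 0.0034), WT replicate 2 (0.72, adjusted p = 5.4e-10), Pcf11-DNL replicate 1 (adjusted p = 0.013) and Pcf11-DNL replicate 2 (adjusted p = 0.0086), and the fit with the replicate block (adjusted p = 0.033). It did not pass without Pcf11-13 replicate 1 or 2 (adjusted p = 0.49 and 0.54). Of 10 coactivator and Mediator genes, 3 were positive, and 1, the Mediator kinase gene SSN3, had an unadjusted p under 0.05, at -0.21 (adjusted p = 0.20).

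In Pcf11-DNL against WT, limma called 0 genes in these lists. The Gcn4 targets of other pathways had a median log2 difference of 0.09, with 25 of 31 positive and 4 at an unadjusted p under 0.05, against 1.61% of all genes. The smallest p was that of ARO3, with a log2 difference of 0.25 (unadjusted p = 0.016, adjusted p = 1). The medians of the other lists lay between -0.03 and 0.00, and 0 of their genes had an unadjusted p under 0.05. Against Pcf11-13, the targets were lower in Pcf11-DNL in 31 of 31, with a median of -0.17, beside 0.00 over all genes. limma called 0 of the 31, with 8 at an unadjusted p under 0.05, where 0.166% of all genes were called and 11% had an unadjusted p under 0.05. The 37 meiosis and sporulation genes used for scaling went the other way, with 36 higher in Pcf11-DNL and a median of 0.33. For Pcf11-13 against WT, 6 of these 37 had a positive difference, with a median of -0.25. Whether the range of the libraries plays a part in these opposite shifts was not tested.

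**Figure D5:**
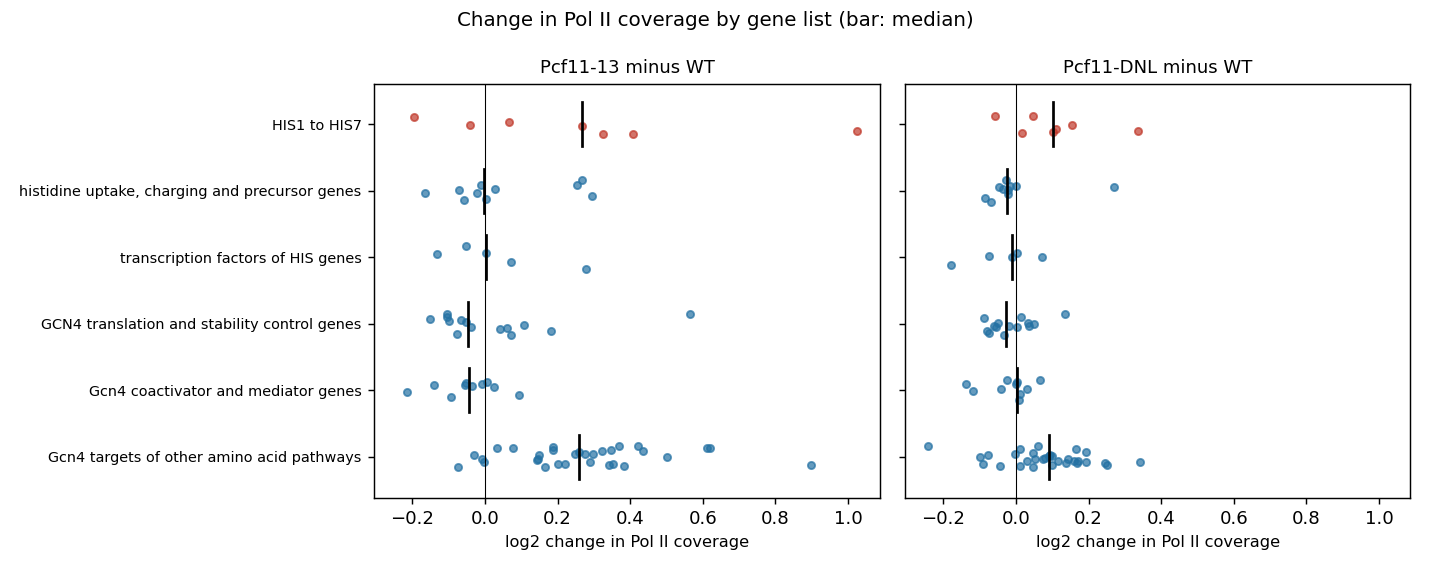
Log2 change in scaled Pol II coverage (horizontal axis) of each gene, by list, for both mutants against WT. Points are genes, with the histidine genes in red, and bars are medians. The histidine genes and the Gcn4 targets of other pathways have the highest medians in Pcf11-13, at 0.27 and 0.26.

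The 5 genes whose Pol II profile over the 6 libraries was most like that of HIS4 were USE1, NDJ1, APE1, URA2 and SSO2. Likeness was the distance between log2 profiles, each centred on its own mean, and these 5 had distances of 0.29 to 0.36 where the median gene had 1.08. USE1 and SSO2 encode SNARE proteins of membrane fusion, NDJ1 a meiotic telomere protein, APE1 a vacuolar aminopeptidase and URA2 the enzyme of the first steps of pyrimidine synthesis. URA2 had a scaled coverage of 238 and 297 in WT, 550 and 512 in Pcf11-13, with 384 and 359 in Pcf11-DNL, in the same order as HIS4 and without overlap. Its log2 differences from WT were 0.99 in Pcf11-13 and 0.48 in Pcf11-DNL, beside 1.02 and 0.34 for HIS4. The other 4 had 0.75 to 0.85 in Pcf11-13 and 0.21 to 0.34 in Pcf11-DNL. Likeness was measured on these same libraries, so the shared order and similar changes were largely set by the choice of genes.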

How the data were processed

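The deposited values are read coverage per gene, a signal given to 3 decimals for each library and not scaled for depth, per the file headers and the values themselves. Per the submitters' processing notes, the tools were Trimmomatic 0.38, BWA 0.7.17-r1188 and deepTools 3.1.2 with the sacCer3 build, and 50 nt single-end reads were made from cells fixed at an OD600 of 0.5, per the labels' protocols. The way a gene's mean coverage was formed is not given in the sources used here, and the strand of reads is not kept, so overlapping transcripts cannot be told apart. The values are not counts, so the count test planned for raw counts was not used.

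A gene was tested if 2 or more libraries covered it at 10 or more, which all 8 described here did. Coverage was divided by unweighted trimmed-mean (TMM) factors (30% of log ratios and 5% of means trimmed), 1 was added, and log2 was taken. The 6 libraries of each assay were fitted together in limma 3.58.1 (R 4.3.3), allowing the variance to follow the mean level. Benjamini-Hochberg adjustment ran over all genes tested (6642 for Pol II, 6643 for input, 6641 for Pol II over input), and genes were called at an adjusted p under 0.05. Pol II over input is the log2 difference from the input of the same genotype and replicate number. A level over the median gene uses the same difference. p-values measure the spread between these libraries only.

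Groups and replicate numbers came from the sample titles. Coordinates and neighbours came from a RefSeq gene table, also of sacCer3 (5976 of 6650 genes matched), with strand read from the systematic name. The named genes were the 8, their neighbours, the called genes of each list (otherwise the one of smallest p), the 5 genes most like HIS4, PCF11 and the mating-type markers. A gene that this rule takes is not reported here by name. The 8 genes, the lists and the comparisons were chosen with earlier results of these data known. Scripts were tested on simulated data. No sequences were used here.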

Additional observations from a re-analysis of the deposited data

How the results depend on the processing

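HIS4 was higher in Pcf11-13 than in WT under all 17 settings (log2 0.93 to 1.27) and passed the test in all but scaling on 37 meiosis and sporulation genes (1.27, adjusted p = 0.9), the setting that gave 0 called genes of the 8 for Pcf11-13 against WT and for Pcf11-DNL against Pcf11-13, over input too. Under that scaling the median gene stood at 0.23, -0.099 and -0.34 in the comparisons of Pcf11-13 with WT, Pcf11-DNL with WT and Pcf11-DNL with Pcf11-13. It turned HIS6 to 0.049, HIS2 to 0.20 and GCN4 to 0.17 in the first, HIS7 to -0.081, HIS2 to -0.052 and BIK1 to -0.0055 in the second, and HIS6 to -0.20 and HIS2 to -0.26 in the third. HIS4 lost its call between the mutants there (-1.03), with quantile normalization (-0.57, adjusted p = 0.10) and with no trend (adjusted p = 0.13), so 0 of the 8 were called in these, over input too. For Pcf11-13 against WT, library totals gave 3 called genes (HIS4, HIS1 and HIS3), quantile normalization 2 (HIS4 and HIS1) and leaving out both libraries of narrow range 2 (HIS4 and HIS5), each with the same number over input. Without both libraries of narrow range, HIS4 also passed in Pcf11-DNL against WT (0.34), but it did not pass there over input. Smaller reversals were HIS7 between the mutants (0.034) and HIS4 input (0.0044) with quantile normalization, BIK1 input between the mutants with library totals (-0.0044), and, without both narrow libraries, HIS7 (-0.0099) and HIS2 (0.087) in Pcf11-13, HIS7 (-0.024) in Pcf11-DNL and GCN4 between the mutants (0.025). The cause was not tested.

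With a library left out, the called genes of the 8 numbered 1 to 3 for Pcf11-13 against WT, 0 to 1 for Pcf11-DNL against WT and 0 to 1 between the mutants, over input too. A lone library was taken to vary like the other groups. Differences that changed sign ranged, for Pcf11-13, from -0.0099 to 0.14 (HIS7), -0.17 to 0.087 (HIS2) and -0.34 to 0.18 (GCN4). For Pcf11-DNL they ranged from -0.033 to 0.24 (HIS1), -0.059 to 0.094 (HIS7), -0.082 to 0.17 (HIS2) and -0.49 to 0.040 (GCN4). Between the mutants they ranged from -0.31 to 0.025 (GCN4), -0.022 to 0.0094 (HIS4 input) and -0.018 to 0.037 (BIK1 input). Over all genes, 76 calls for Pcf11-13 became 292 with library totals, 272 with quantile normalization, 205 with the compared genotypes alone, 782 without both narrow libraries, 44 with no filter, 10 with no trend and 6 with meiosis scaling. The 11 between the mutants became 119, 5, 666, 550, 10, 2 and 32 in the same order. BIK1 lost its call with no trend (adjusted p = 0.13) and with meiosis scaling (0.76, adjusted p = 0.9), as did ARG1 and ARG4, and ARG4 with no filter (adjusted p = 0.053).

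Replicate numbers are shared by the groups but mark no common batch in the labels. Deviations of same-numbered libraries correlated at -0.09 for WT with Pcf11-13 and -0.07 for Pcf11-13 with Pcf11-DNL. For WT with Pcf11-DNL the correlation was -0.89, so these groups deviated strongly in opposite directions by number. Their libraries of narrow range are WT replicate 1 and Pcf11-DNL replicate 2, which a block on replicate number does not pair. With the replicate block, 1, 0 and 1 of the 8 genes were called in the 3 comparisons, as without it, and 107, 3 and 20 over all genes. The block changed no call of the 8, while PCL5 in Pcf11-13 passed with it (adjusted p = 0.033). PCL5 also passed with library totals (adjusted p = 0.0016), with quantile normalization (0.49, adjusted p = 0.041), with the compared genotypes alone (adjusted p = 0.0093) and without both narrow libraries (adjusted p = 7.7e-04).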
